A study of Mus musculus with 8 samples.

Results

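The genes described here encode the receptors for glutamate and the subunits that travel with them, read out of RNA-seq of the mouse ventral hippocampus. The 34 members were taken by name from a list of AMPA, kainate, NMDA, delta and metabotropic glutamate receptors and auxiliary subunits, by a rule that uses no measured value. All 34 were found among the 50686 genes of the deposited table, 33 had at least 1 read, and 32 passed the filter on low counts along with 16018 genes in all. The mice were males of the strain C57B6/J as the labels spell it (C57BL/6J in the methods of the study), 8 weeks old, that received vehicle (4 mice, libraries numbered 1 to 4) or 3 mg/kg corticosterone, the main glucocorticoid of rodents (4 mice, libraries 5 to 8). Tissue was taken 3 h after the injection, at 1 time and 1 dose, and every library is a separate mouse. A piece of tissue holds many cell types, so fewer cells of a type and less RNA per cell cannot be told apart.

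Glutamate is the main excitatory transmitter of the hippocampus. AMPA, kainate and NMDA receptors are ion channels built of subunits, and AMPA receptors carry most of the fast current while NMDA receptors admit calcium and gate synaptic plasticity. Metabotropic receptors (mGlu) signal through G proteins. Transmembrane AMPA receptor regulatory proteins (TARPs, the *Cacng* genes) and cornichons (*Cnih* genes) set the trafficking and kinetics of AMPA receptors, and Neto proteins do so for kainate receptors. Glucocorticoids act through nuclear receptors that bind DNA and regulate transcription.

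Between 19214090 and 19931987 reads per vehicle library and between 17492159 and 19776297 per corticosterone library were counted on genes. *Fkbp5*, a classic glucocorticoid target that encodes a chaperone of the receptor, rose in all 4 treated mice. Its normalized counts, made by the TMM method and scaled to the mean library, were 2373, 1765, 1983 and 1709 with vehicle and 3186, 3510, 3364 and 3177 with corticosterone (log2 fold change 0.76, SE 0.0967, edgeR adjusted p = 0.0481). It was the 1 gene of 16018 that edgeR called. With at least 10 counts required in every sample, or without any 1 of vehicle 2 to 4 and corticosterone 6 to 8, edgeR called 0 genes. DESeq2, run here as an alternative, called 63 of 16826 genes at an adjusted p under 0.05. The study, which used DESeq2, reported more responsive genes. The library of corticosterone 5 stood apart from the other 3 of its group. On the first principal component, which held 32.6% of the variance, corticosterone 6 to 8 lay between 19.7 and 24.2, while corticosterone 5 lay at -19.5, among vehicle 1 to 3 (-25.8 to -8.47). Vehicle 4 lay at 4.87. The number of members called and part of the values are therefore given with and without corticosterone 5, whose *Fkbp5* count was on the side of its group. Among lists of marker genes, the summed level of 5 microglial markers was 263 to 266 CPM (counts scaled to a common library size) with vehicle and 183 to 255 with corticosterone, and that of 4 endothelial markers 91.5 to 96.4 and 75.7 to 86.0, without overlap. The sums for the other 12 lists overlapped, among them CA1 (519 to 705 and 530 to 755), CA3 (82.7 to 112 and 85.2 to 99.8) and dentate granule cells (187 to 229 and 167 to 218), and 0 of the markers tested was at 0 in every library. At an unadjusted p under 0.05 with edgeR, 2 of the 5 microglial and 1 of the 4 endothelial markers were lower. So were 2 of 5 oligodendrocyte and 2 of 5 dentate markers, whose sums overlapped, and 0 markers of these 4 lists were higher. Of all genes, 9.03% had such a p in either direction. Markers of the neighbouring thalamus varied between mice, from 48.0 to 96.2 with vehicle and from 52.0 to 117 with corticosterone. The part of cell composition in the results below was not tested.

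The ventral hippocampus held transcripts of nearly the whole family, over a wide range of levels. Levels of different genes were compared per length, as normalized CPM per kilobase of exon, averaged over the 8 libraries. *Cnih2*, a cornichon that slows AMPA receptor closing, was highest at 298 (240 to 400 across libraries), followed by *Gria1*, which encodes the GluA1 subunit of AMPA receptors, at 201 (185 to 222). The lowest library of *Cnih2* was above the highest of *Gria1*. The next were the TARP gene *Cacng7* at 59.4, *Grik5* (the kainate subunit GluK5) at 53.0, *Grin1* (the obligatory NMDA subunit GluN1) at 52.1 and *Gria2* (GluA2, the subunit that makes AMPA receptors impermeable to calcium) at 47.3. The ranges of these 4 overlapped across libraries. *Cacng8*, the TARP best known from the hippocampus, stood at 33.1 and *Cnih3* at 30.4, with *Grm5* at 27.8 and *Cacng3* at 25.6.

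**Figure D1:**
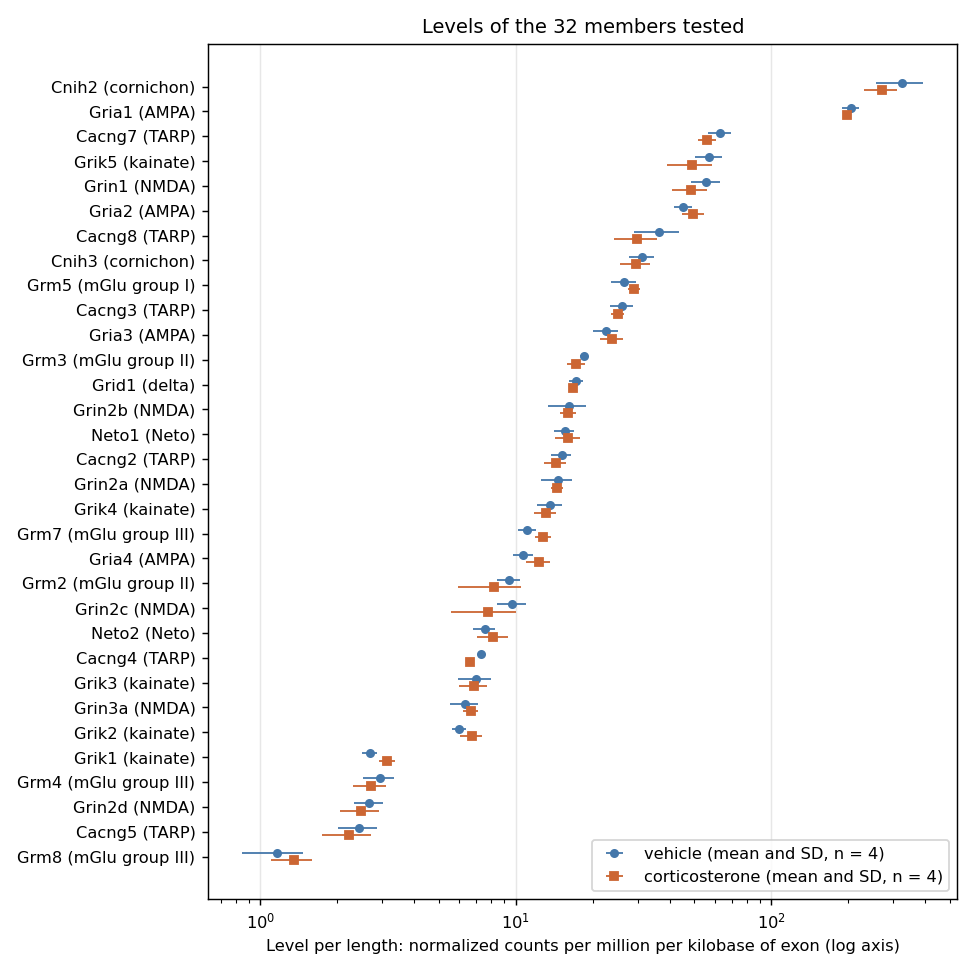
Level of each member tested in CPM per kilobase of exon on a log axis, as the mean and SD of 4 vehicle and 4 corticosterone libraries. The members spread from *Grm8* near 1 to *Cnih2* near 298, and the 2 groups of mice lie close together for each member.

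Between 10 and 25 per kilobase lay *Gria3*, *Grm3*, *Grid1*, *Grin2b*, *Neto1*, *Cacng2*, *Grin2a*, *Grik4*, *Grm7* and *Gria4* (23.2 to 11.5, in this order). *Grm2*, *Grin2c*, *Neto2*, *Cacng4*, *Grik3*, *Grin3a* and *Grik2* followed at 8.79 to 6.36. The lowest of the members tested were *Grik1* at 2.91, *Grm4* at 2.82, *Grin2d* at 2.57, *Cacng5* at 2.32 and *Grm8* at 1.25. The length used was that of all annotated exons of a gene, which was 15548 bases for *Gria2*, 17933 for *Grin2a* and 24842 for *Grin2b*, so rarely used exons lower the level given for these genes.

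Both members that failed the filter were near or at 0. *Grm6*, the mGlu6 receptor known from retinal bipolar cells, had 0 counts in all 8 libraries, which allows up to 3 counts per library, an allowance for counting error only. *Grin3b*, an NMDA subunit known from motor neurons, had 0, 1, 0 and 0 counts with vehicle and 3, 0, 0 and 2 with corticosterone. At this depth no difference in *Grin3b* between the groups was detectable, and 32.1% of its exon bases overlap *Tmem259* on the opposite strand.

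The first comparison asks whether any receptor or auxiliary subunit gene responded to corticosterone within 3 h. In the quasi-likelihood test of edgeR, 0 of the 32 members tested were differentially expressed at an adjusted p under 0.05, where 0.00624% of all genes tested were called. DESeq2 (0.374% of all genes called) and limma-voom (0.00624%) also called 0 members. At an unadjusted p under 0.05, edgeR had 2 members (6.25% of the 32, and 9.03% of all genes), DESeq2 had 2 (8.3% of all genes) and limma-voom 3 (9.21%). Log2 fold changes of corticosterone over vehicle ranged from -0.31 for *Grin2c* to 0.23 for *Grik1*, with adjusted p from 0.507 to 0.983 and a median SE of 0.095. The median over the members was -0.047, and that over all genes 0.003. Of the members, 11 were above 0 and 21 below.

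Of the AMPA subunits, *Gria1* (chr11:57011387-57330244, plus strand, mm10) had normalized counts of 24132, 21377, 25651 and 23342 with vehicle. In the corticosterone mice they were 22744, 23857, 22573 and 22651, all inside the vehicle range (log2 fold change -0.04, SE 0.0689, edgeR adjusted p = 0.824). GluA1 is the subunit inserted during long-term potentiation. *Gria2* had 12936, 12496, 13320 and 14950 with vehicle and 12665, 15446, 14973 and 15908 with corticosterone. Corticosterone 6 to 8 were above every vehicle library and corticosterone 5 was not, and the log2 fold change of 0.14 did not pass the test (SE 0.0843, adjusted p = 0.586). *Gria4*, which encodes GluA4, had 1237, 1332, 1181 and 1439 with vehicle and 1243, 1585, 1537 and 1569 with corticosterone, and library 5 was again inside the vehicle range (log2 fold change 0.19, SE 0.0917, adjusted p = 0.545). *Gria3* (GluA3) was at 0.07 (adjusted p = 0.774).

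The kainate subunits fell on both sides of 0. *Grik5*, which assembles with other kainate subunits and raises their affinity, had 5710, 5414, 6588 and 4919 with vehicle. With corticosterone it had 6270 in library 5 and 4387, 4304 and 4376 in libraries 6 to 8 (log2 fold change -0.23, SE 0.124, adjusted p = 0.55). The 3 latter values were below the vehicle range and closer to each other than any pair of vehicle libraries. *Grik1* (GluK1, chr16:87895900-88290265, minus strand), typical of inhibitory neurons in the hippocampus, was 1 of the 2 members with an unadjusted p under 0.05. Its counts were 323.1, 373.2, 327.7 and 355.4 with vehicle and 367.5, 418.7, 432.0 and 396.6 with corticosterone (log2 fold change 0.23, SE 0.0912, edgeR adjusted p = 0.532). Again library 5 was the corticosterone value inside the vehicle range, and the exact permutation p was 0.0571. *Grik2*, *Grik3* and *Grik4* had log2 fold changes of 0.16, -0.03 and -0.06.

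Among the NMDA subunits, *Grin1* had 10297, 10044, 12141 and 8940 with vehicle. With corticosterone it had 11085 in library 5 and 8086, 8610 and 8214 in the other 3, below all vehicle libraries (log2 fold change -0.20, SE 0.112, adjusted p = 0.555). An antisense gene, *Grin1os*, overlaps 13.5% of the exon bases of *Grin1* and had 3 reads in all. The GluN2 genes set the kinetics and the magnesium block of the receptor. *Grin2a* and *Grin2b*, the main GluN2 genes of the forebrain, had log2 fold changes of -0.01 each (SE 0.0955 and 0.111). *Grin2c* had the lowest log2 fold change of all members at -0.31 (SE 0.16, adjusted p = 0.546), with counts of 925.1, 1007, 1033 and 767.1 with vehicle and 1073, 608.6, 660.0 and 663.5 with corticosterone. Library 5 was above all vehicle libraries and the other 3 were below them. *Grin3a* was at 0.08 and *Grin2d* at -0.10. The antisense gene *Gm45441* overlaps 9.66% of the exon bases of *Grin2d* and had 1651 reads in all, against 2628 for *Grin2d*. The single delta receptor gene listed, *Grid1*, a synaptic organizer, had 1796, 1988, 2081 and 1981 with vehicle and 1956, 1928, 1919 and 1820 with corticosterone (log2 fold change -0.04, SE 0.0671). All of its corticosterone values lay in the vehicle range.

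Of the metabotropic receptors, *Grm5* (mGlu5, a postsynaptic receptor of group I) had 4855, 4758, 5228 and 6026 with vehicle. Its counts with corticosterone were 5272, 5776, 5730 and 6011, within the span of the vehicle libraries (log2 fold change 0.13, SE 0.0821, adjusted p = 0.594). In group II, which lowers cyclic AMP, *Grm3* had 1114, 1030, 1055 and 1114 with vehicle and 1026, 904.7, 978.5 and 1100 with corticosterone (log2 fold change -0.10, SE 0.0757, adjusted p = 0.62). *Grm2*, a presynaptic receptor known from dentate mossy fibres, had 759.2, 858.0, 944.9 and 955.6 with vehicle and 1061, 582.6, 789.3 and 643.1 with corticosterone (log2 fold change -0.19, SE 0.156). Library 5 was the highest and library 6 the lowest of all 8. *Grm7* (chr6:110645581-111567230, plus strand), a group III receptor of the presynaptic active zone, had the smallest p of the members. Its counts were 1244, 1193, 1168 and 1392 with vehicle and 1297, 1540, 1462 and 1491 with corticosterone (log2 fold change 0.21, SE 0.0796, edgeR adjusted p = 0.507). The groups overlapped through vehicle 4 and corticosterone 5, and the exact permutation test over the 70 assignments also gave p = 0.0571. An antisense gene shares 2.21% of its exon bases. *Grm4* and *Grm8* had log2 fold changes of -0.12 and 0.22, the latter with an SE of 0.178 at the lowest level of the members tested. Without vehicle 4, *Grm8* was at 0.41 and without vehicle 1 at 0.10, and *Grm4* moved between -0.21 (without corticosterone 7) and -0.02 (without vehicle 2).

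All 6 TARP genes had log2 fold changes below 0, from -0.28 to -0.05, of which 0 passed the test. *Cacng3* turned to 0.01 without vehicle 4. *Cacng5*, *Cacng7* and *Cacng8* turned positive once the ambiguous share of reads, which was mostly lower with corticosterone, was a covariate. *Cacng7* had 2802, 3231, 3135 and 2572 with vehicle and 2928, 2463, 2606 and 2480 with corticosterone (log2 fold change -0.16, SE 0.0867, adjusted p = 0.546). Its neighbour on chromosome 7, *Cacng8*, had 1619, 1561, 2060 and 1275 with vehicle and 1720, 1243, 1213 and 1194 with corticosterone (log2 fold change -0.28, SE 0.144, adjusted p = 0.546). Libraries 6 to 8 were below every vehicle library. *Cacng4* (chr11:107732357-107794557, minus strand), a TARP gene strongly expressed in the developing brain, was the only member tested whose groups did not overlap, which is 3.12% of the members, while 3.66% of all genes tested had groups without overlap. Its counts were 500.9, 503.5, 494.0 and 496.6 with vehicle and 438.6, 462.1, 471.9 and 445.3 with corticosterone. The lowest vehicle value was thus above the highest corticosterone value, at a log2 fold change of -0.13 (SE 0.0752, edgeR adjusted p = 0.559; exact permutation p = 0.0286, the smallest that 4 against 4 can give). The vehicle libraries of *Cacng4* had a coefficient of variation of 0.854%. *Cacng2* (stargazin), *Cacng3* and *Cacng5* were at -0.07, -0.05 and -0.13.

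The cornichon gene *Cnih2* (chr19:5092868-5098521, minus strand) had 9272, 8000, 10498 and 6305 with vehicle. With corticosterone it had 8618, 6448, 6552 and 6750 (log2 fold change -0.26, SE 0.138, adjusted p = 0.546). Vehicle 4 was the lowest of all 8 libraries, so that the groups overlapped, and leaving out 1 library moved the log2 fold change between -0.39 (without vehicle 4) and -0.15 (without vehicle 3). *Cnih3* was at -0.08. For the Neto genes, *Neto1* had 2621, 2176, 2644 and 2456 with vehicle and 2379, 2556, 2341 and 2957 with corticosterone (log2 fold change 0.05, SE 0.0895), and *Neto2* was at 0.12 (SE 0.106, adjusted p = 0.679). The values of both groups were interleaved for *Neto1*.

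**Figure D2:**
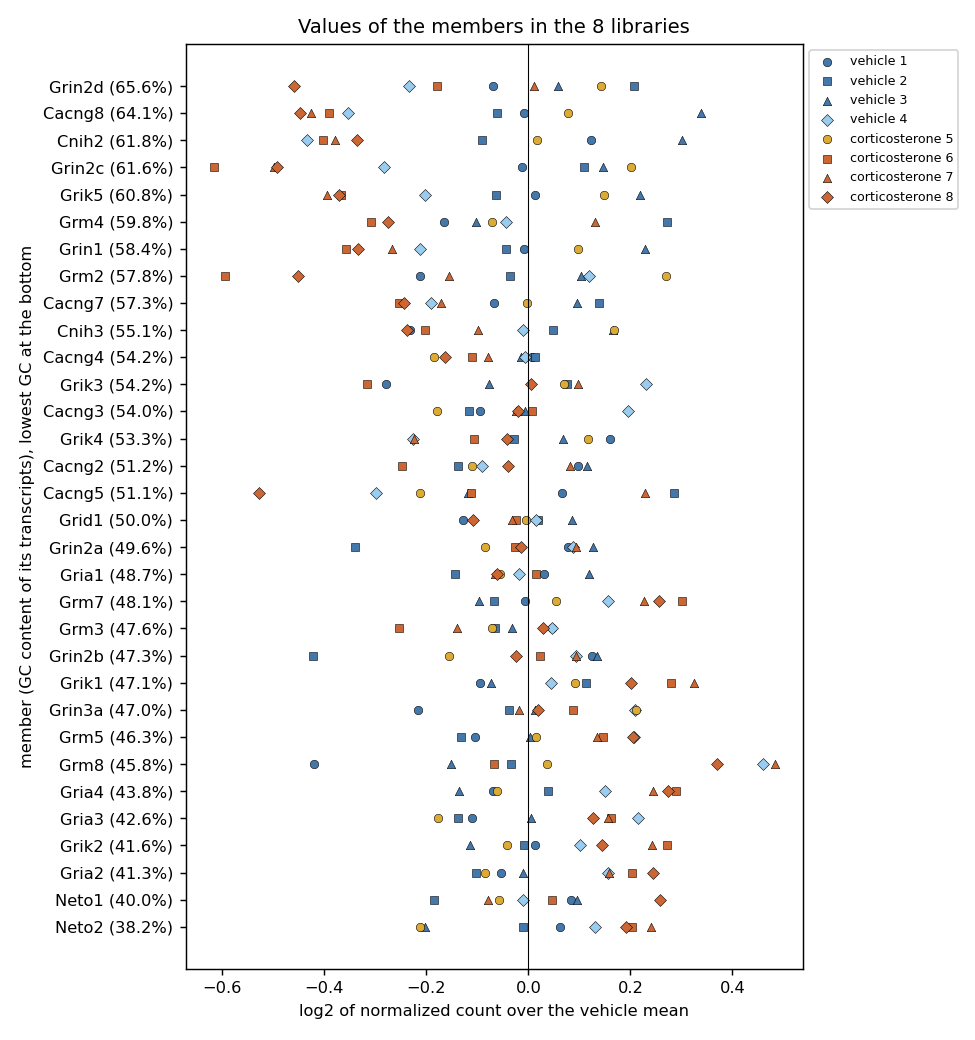
Log2 of the normalized count of each member tested over its vehicle mean in each of the 8 libraries, with the members ordered by the GC content of their transcripts. At the top, among the members richest in GC, corticosterone 6 to 8 and vehicle 4 mostly lie left of 0 and corticosterone 5 right of 0, and at the bottom the order is turned around.

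One library of 8 bore on the number of members called. For 10 members (31.2%), corticosterone 6 to 8 all lay beyond the vehicle range on the same side while corticosterone 5 did not, a pattern found in 20.8% of all genes tested. Those higher were *Gria2*, *Gria4*, *Grik1*, *Grik2*, *Grm7* and *Neto2*, and those lower *Grik5*, *Grin1*, *Grin2c* and *Cacng8*. When corticosterone 5 was left out, edgeR called 7 members (21.9%), where it called 10.2% of all genes (3.73% higher and 6.47% lower). *Gria4* rose by a log2 fold change of 0.27 (SE 0.0726, adjusted p = 0.0358) and *Grm7* by 0.26 (SE 0.071, adjusted p = 0.0362) in this comparison of 3 against 4 mice. The 5 that fell were *Grin2c* at -0.53 (adjusted p = 0.0134), *Grik5* at -0.38 (adjusted p = 0.0203), *Grin1* at -0.32 (adjusted p = 0.0358), *Grm2* at -0.39 (adjusted p = 0.0374) and *Cacng8* at -0.42 (adjusted p = 0.0391). *Grik1* was at 0.27 (adjusted p = 0.0677) and *Cacng4* at -0.12 (adjusted p = 0.331). Of the members, 13 then had an unadjusted p under 0.05, and so did 29.0% of all genes. Leaving out any other library gave 0 members called, and without vehicle 4, 11 members and 15.3% of all genes had an unadjusted p under 0.05.

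The size of the difference followed the base composition and the length of the members. GC content, the share of G and C bases in the annotated transcripts of a gene, ranged from 38.2% for *Neto2* to 65.6% for *Grin2d*. Over the 32 members, the log2 fold change had a Pearson r of -0.83 and a Spearman rho of -0.85 with GC content. With exon length, rho was 0.68 (0.63 without corticosterone 5), and the part of each was not tested alone. Members share the same 8 libraries and are not independent replicates. Over 15983 genes tested, rho was -0.53. All 10 members with a GC content of at least 55%, a limit chosen after the values had been seen, were lower with corticosterone (median log2 fold change -0.20), and of the other 22, 11 were higher (median 0.02). Those 10 were *Grin2d*, *Cacng8*, *Cnih2*, *Grin2c*, *Grik5*, *Grm4*, *Grin1*, *Grm2*, *Cacng7* and *Cnih3*, which belong to the NMDA, kainate, metabotropic, TARP and cornichon classes.

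The contrast in base composition can be seen in coding sequence of *Cnih2* and *Gria2*, whose values lay on opposite sides of 0. The coding sequence of *Cnih2* is 54.0% and that of *Gria2* 44.6% G and C (transcripts 61.8% and 41.3%). The 60 coding bases 34 to 93 of each, from GENCODE M21, are shown with G and C in capitals, as the stretch nearest in composition to the whole coding sequence.
Cnih2: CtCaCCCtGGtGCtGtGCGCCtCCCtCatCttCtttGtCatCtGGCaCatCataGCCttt
Gria2: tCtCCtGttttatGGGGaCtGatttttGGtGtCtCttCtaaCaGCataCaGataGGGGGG

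Single libraries also differed from each other along this axis, within as well as between groups. The slope of log2 counts on GC content over all genes, per 10% of GC, was 0.066, 0.16 and 0.19 in vehicle 1 to 3 and 0.22 in corticosterone 5. It was negative in vehicle 4 (-0.0925) and in corticosterone 6 to 8 (-0.20, -0.14 and -0.20). The groups thus differed in this slope on average, and 1 library of each group was on the side of the other group. Without corticosterone 5, rho over the members was -0.90 and that over 16146 genes -0.63. After each library had been corrected for its trend with GC content and exon length, rho was -0.05 over the members, 8 of the 10 members rich in GC were below 0 (median -0.03), and 0 members were differentially expressed (0.181% of all genes). *Cacng8* was then at -0.0041, *Cnih2* and *Grik5* at -0.03 and *Gria2* at -0.0028. With the trend removed and corticosterone 5 left out, edgeR again called 0 members and 0.737% of all genes. Of the 7 members called without corticosterone 5 alone, *Grm7* was then at 0.20 (SE 0.0558, adjusted p = 0.108), *Grin2c* at -0.17 (adjusted p = 0.182), *Grm2* at -0.17 (adjusted p = 0.478), *Gria4* at 0.12 (adjusted p = 0.322), *Grin1* at -0.07, *Grik5* at -0.05 and *Cacng8* at 0.03.

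**Figure D3:**
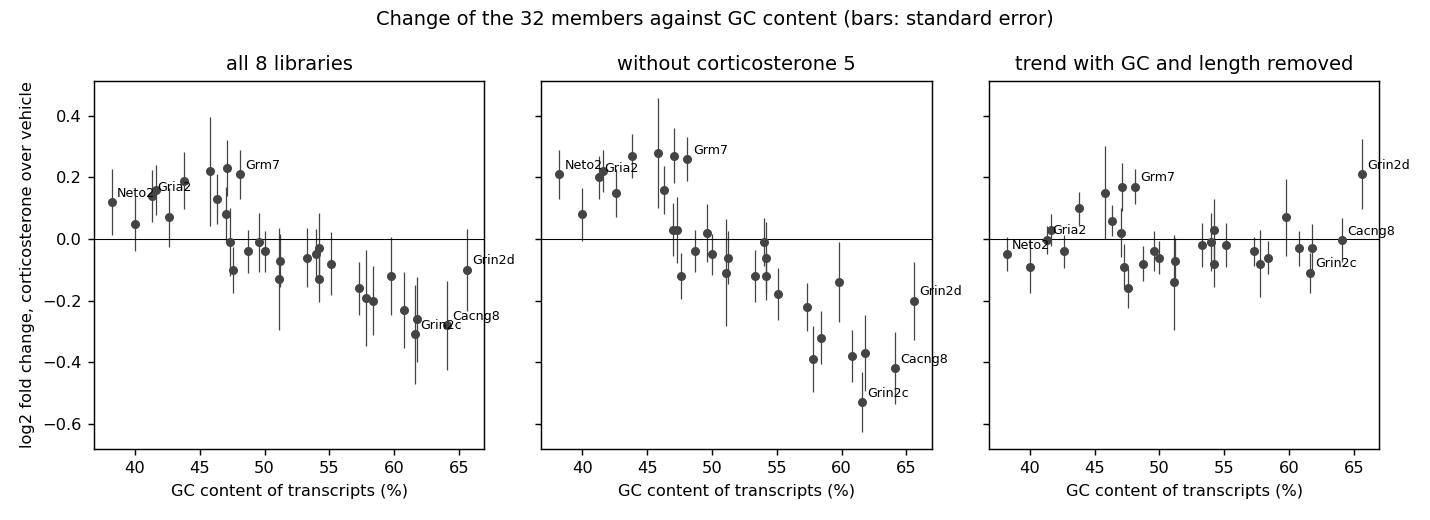
Log2 fold change of each member tested (corticosterone over vehicle, bars: standard error of the edgeR fit) against the GC content of its transcripts, for all 8 libraries, without corticosterone 5, and with the trends with GC content and exon length removed. The values decline with GC content in the left and middle panels (Spearman rho -0.85 and -0.90) and not in the right panel (rho -0.05).

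With the trend removed, 3 members had an unadjusted p under 0.05. *Grm7* was at 0.17 (SE 0.056, edgeR adjusted p = 0.316) and *Grik1* at 0.17 (SE 0.078, adjusted p = 0.528), the same pair as without the removal. *Grm3* joined them at -0.16 (SE 0.0651, adjusted p = 0.455). Of all genes, 9.4% had an unadjusted p under 0.05 in this fit. *Cacng4* was at -0.08 (SE 0.0743). The share of reads that HTSeq could not assign to 1 gene (ambiguous) was 1.40% to 1.67% in the vehicle and 1.25% to 1.48% in the corticosterone libraries. The groups overlapped in it only through vehicle 4 (1.40%) and corticosterone 5 (1.48%), so a fit can hardly separate it from the treatment. With this share as a covariate, 20 members had a log2 fold change of the opposite sign, *Grm7* among them at -0.03 (adjusted p = 0.925), and 0 members and 0.237% of all genes were called.

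Subunits assemble in different proportions, and ratios between their counts do not depend on the scaling between libraries. The counts were not divided by exon length, so a ratio compares mice and does not give the relative amounts of the transcripts. Per kilobase of exon, *Gria1* was at 201 and *Gria2* at 47.3, farther apart than their counts. The ratios were taken within each library as log2 of the counts and compared by exact two-sided permutation tests over 70 assignments, with Benjamini-Hochberg adjustment over the 6 ratios. *Gria1* exceeded *Gria2* in counts in every library, by 1.87, 1.71, 1.93 and 1.56 times with vehicle and by 1.80, 1.54, 1.51 and 1.42 times with corticosterone. The log2 ratio was 0.82 ± 0.14 (SD, n = 4) with vehicle and 0.64 ± 0.14 with corticosterone, a difference of -0.17 (exact p = 0.1429, adjusted p = 0.2857). *Grin2a* to *Grin2b*, the ratio that rises as NMDA receptors mature, was nearly the same in all mice, from 0.634 to 0.694 with vehicle and from 0.633 to 0.688 with corticosterone (difference 0.0024, exact p = 0.8857).

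The other 4 ratios did not pass the test either. The summed AMPA counts were 1.54 to 1.77 times the summed NMDA counts with vehicle and 1.56 to 1.96 times with corticosterone (log2 difference 0.12, exact p = 0.2286, adjusted p = 0.3429). *Grm5* to the sum of *Grm2* and *Grm3* was 1.41 ± 0.092 on the log2 scale with vehicle and 1.69 ± 0.26 with corticosterone (difference 0.29, exact p = 0.1143, adjusted p = 0.2857). In this ratio corticosterone 6 to 8 were above all vehicle libraries and corticosterone 5 was not. The TARP sum to the AMPA sum differed by -0.18 (exact p = 0.1429, adjusted p = 0.2857) and the kainate sum to the AMPA sum by -0.14 (exact p = 0.3714, adjusted p = 0.4457). With 1 library left out, the latter difference ran from -0.24 (without corticosterone 5) to -0.09 (without corticosterone 6) and that of AMPA to NMDA from 0.19 to 0.08 without the same libraries. The genes of a ratio can differ in GC content, as *Gria1* and *Gria2* do (48.7% and 41.3%), and the part of this difference in the ratios was not tested.

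**Figure D4:**
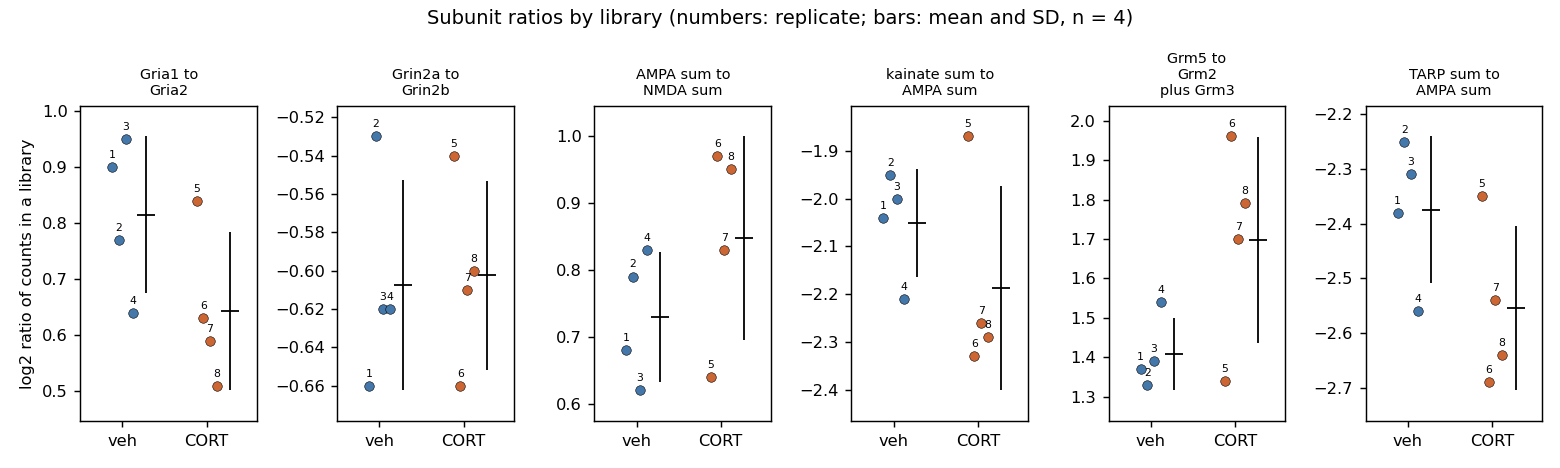
Log2 ratio of counts within a library for 6 pairs of genes or sums, with the replicate number beside each point and the mean and SD (n = 4) to its right. In 5 of the 6 panels corticosterone 5 lies apart from libraries 6 to 8 on the side of the vehicle points, and the axes have different ranges.

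Genes that work with the receptors at the same synapse were read out of the same fit, in 3 lists. Of 20 scaffold and signalling genes of the postsynaptic density, 0 were differentially expressed with edgeR or DESeq2, 1 had an unadjusted p under 0.05 with a positive and 3 with a negative log2 fold change (median -0.101), where 9.03% of all genes had such a p. They were *Dlg4* (PSD-95, the main scaffold, log2 fold change -0.25), the scaffold genes *Shank3* (-0.30) and *Dlgap3* (-0.38), and *Camk2d*, a kinase subunit (0.35), with edgeR adjusted p from 0.476 to 0.545. With the trends with GC content and exon length removed, *Dlg4* was at -0.20, *Shank3* at -0.08, *Dlgap3* at -0.11 and *Camk2d* at 0.25. Without corticosterone 5, 6 of the 20 genes were called, where 10.2% of all genes were. Of 20 other partners of AMPA, kainate and NMDA receptors, 0 were called with either tool (median -0.064), and 3 of the 20 without corticosterone 5, where again 10.2% of all genes were called.

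Among these partners, *C1ql2* was the only gene whose groups did not overlap (1 of 20, where 3.66% of all genes had groups without overlap). It encodes a complement-like protein that mossy fibres secrete and that clusters kainate receptors. Its counts were 1411, 1498, 1601 and 1213 with vehicle and 1125, 1116, 1150 and 881 with corticosterone, lower in all 4 treated mice than in any vehicle mouse (log2 fold change -0.42, SE 0.103, edgeR adjusted p = 0.282, exact permutation p = 0.0286). Corticosterone 5 was on the side of its group here. Groups without overlap always give this permutation p, the smallest possible, so it only repeats the lack of overlap. The GC content of *C1ql2* is 63.4%, and with the trends removed its log2 fold change was -0.15. *C1ql2* is also 1 of the 5 markers of dentate granule cells, whose sums overlapped between the groups. Of 10 presynaptic and glial genes that make, load or clear glutamate, 0 were called (median 0.023), where 0.00624% of all genes were, and the groups did not overlap for 1 (3.66% of all genes). This was *Slc38a2*, a glutamine transporter, which had 2170, 2040, 1907 and 2129 with vehicle and 2233, 2543, 2322 and 2326 with corticosterone (log2 fold change 0.19, SE 0.0696, edgeR adjusted p = 0.499, exact permutation p = 0.0286), and was at 0.10 with the trends removed.

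Promoters were searched for the hexamer of the glucocorticoid response element, AGAACA or its complement TGTTCT, on both strands of the 250 bases before each RefSeq start site (GRCm38.p6). The table held 28 promoters of 23 members, without *Gria1*, *Gria3*, *Grik1*, *Grin2a*, *Grin2b*, *Grin3a*, *Grid1*, *Grm4*, *Grm5*, *Cacng4* and *Neto1*. The hexamer was found in 3 of the 28 (10.7%), those of *Cnih2*, *Grin3b* and *Grm8*, and in 16.1% of all 32851 promoters. The full palindrome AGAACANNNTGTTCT was in 0 of the 28 and in 0.00913% of all promoters. Sequence farther from the start was not searched. The study states that the receptor often binds farther away from its target genes. These counts thus do not show that a member lacks such an element. The promoter of *Cnih2*, the member of highest level, and a promoter of *Grm7*, the member of smallest p, are shown with the hexamer in capitals. They are chr19:5098522-5098771 on the minus strand, where the hexamer begins at -155 from the start site, and chr6:110645262-110645511 on the plus strand, which holds no match.
Cnih2: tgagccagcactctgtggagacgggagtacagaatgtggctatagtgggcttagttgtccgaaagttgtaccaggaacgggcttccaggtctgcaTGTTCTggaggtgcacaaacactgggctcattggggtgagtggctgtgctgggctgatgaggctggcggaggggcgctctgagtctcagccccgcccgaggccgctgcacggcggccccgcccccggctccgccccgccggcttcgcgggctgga
Grm7: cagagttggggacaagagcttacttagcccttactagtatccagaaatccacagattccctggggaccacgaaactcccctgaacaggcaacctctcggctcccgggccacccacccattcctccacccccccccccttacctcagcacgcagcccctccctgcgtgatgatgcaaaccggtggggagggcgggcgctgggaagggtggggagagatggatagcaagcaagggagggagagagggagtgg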

How the data were processed

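Total RNA of ventral hippocampus was made into stranded mRNA libraries and sequenced as paired reads of 100 bases. The authors ran the Gentrap pipeline, aligned the reads to mm10 with GSnap and assigned them to genes with HTSeq-count 0.6.0. The authors deposited a table of raw counts, whole numbers without normalization. The annotation release and the strand setting of the counting were not given in the sources used here, so reads of overlapping genes on opposite strands may not be separated. All 8 columns were mapped by their names to the sample titles, and 0 columns were left out. Rows that name no gene (unaligned, ambiguous and the like) held 13.7% to 15.4% of the table and were left out of library sizes. Symbols, coordinates, exon lengths and GC content came from GENCODE M21 (GRCm38).

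Counts were filtered with filterByExpr and normalized with TMM, and edgeR 4.0.16 (quasi-likelihood test, R 4.3.3, prior count 2) compared the groups, with Benjamini-Hochberg adjustment over all 16018 genes. An adjusted p under 0.05 was taken as differentially expressed. DESeq2, the tool of the study, was run here (1.42.0) as an alternative, beside limma-voom (limma 3.58.1), DESeq2 size factors, no filter, at least 10 counts in every sample, 1 surrogate variable (sva 3.50.0), an adjusted p under 0.1, and each library left out in turn. Settings added after the data had been seen were removal of the trend with GC content and exon length (splines with 5 degrees of freedom), this removal without corticosterone 5, and a covariate for the ambiguous share of reads. Single genes and ratios were compared by exact two-sided permutation tests on log2 values, for genes with a pseudocount of 1. The test scripts were tested on simulated data.

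The rule for the members uses no measured value, but the members, the lists and the tests were chosen with earlier results of these data known. Values in every library are given for members with an unadjusted p under 0.05, members whose groups do not overlap, the member of highest level in each class, and members that failed the filter. Of the other lists, up to 3 genes with the smallest unadjusted p under 0.05 were to be named. *Dlgap3* and *Camk2d* are both given because the count they belong to is small, and *Gria2* and the members called without corticosterone 5 were added after their values had been seen.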

Additional observations from a re-analysis of the deposited data

Results flagged for a closer look

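In each group of 4 libraries, the normalized counts of the members tested and the subunit ratios were examined for a single library far from the other 3, by the gap to its nearest neighbour over the range of the group (Dixon's 95% limit). Of 76 sets of 4 values, 11 had such a library, where chance gives about 1 in 20, or 3.8. The share of all genes flagged by this rule was not computed. Corticosterone 5 stood apart over all genes too: corticosterone 6 to 8 lay beyond the vehicle range without it for 20.8% of the genes tested. The count therefore cannot be called particular to these members.

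In 8 of the 11 the library was corticosterone 5. It was high for *Grik5* (6270, others 4304 to 4387), *Grin2c* (1073, others 609 to 664), *Cacng8* (1720, others 1194 to 1243) and *Cnih2* (8618, others 6448 to 6750), 4 members with a GC content above 55%. It was low for *Gria3* (3775, others 4659 to 4774), *Gria4* (1243, others 1537 to 1585) and *Neto2* (763, others 1010 to 1045), members with a GC content of 42.6%, 43.8% and 38.2%. Its log2 ratio of the kainate sum to the AMPA sum was -1.87 (others -2.33 to -2.26).

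Vehicle 2 was low for both main GluN2 genes, *Grin2a* (3966, others 5293 to 5475) and *Grin2b* (5716, others 8178 to 8406), while its ratio between them was the highest of the vehicle libraries. Corticosterone 6 was high for *Gria1* (23857, others 22573 to 22744).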

How the results depend on the processing

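The 0 members called by edgeR stayed at 0 in all settings but the one without corticosterone 5, and leaving out 1 library in turn gave 0 to 7. The number with an unadjusted p under 0.05 was 2 with all libraries and 0 to 13 with 1 left out (13 without corticosterone 5, 11 without vehicle 4). It was 1 with a surrogate variable (6.31% of all genes), 8 without a filter (8.9%), 6 with the ambiguous share as a covariate (11.7%) and 6 with the trend removed and corticosterone 5 left out (15.0%). The postsynaptic list had 0 to 6 genes called and the receptor partners 0 to 3 when 1 library was left out, the highest again without corticosterone 5. The median over the members stayed below 0 in every setting (-0.064 to -0.016). Where no cause is named, the cause was not tested.

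Log2 fold changes of several members turned their sign, and with the ambiguous share as a covariate these included members far from 0, such as *Grin2c* (-0.31). That share was mostly lower with corticosterone, so the fit with it can hardly separate it from the treatment. Of the members, 27 of the 32 kept their sign in all fits with 1 library left out. The exceptions were *Cacng3* (-0.09 to 0.01), *Grik3* (-0.11 to 0.06), *Grin2a* (-0.10 to 0.04), *Grin2b* (-0.13 to 0.03) and *Neto1* (-0.03 to 0.09), and the log2 ratio of *Grin2a* to *Grin2b* (-0.02 to 0.03). Others moved in size, such as *Grin2c* (-0.53 to -0.22), *Cacng8* (-0.42 to -0.15), *Grik5* (-0.38 to -0.15), *Grin1* (-0.32 to -0.12) and *Grm2* (-0.39 to -0.08), all farthest from 0 without corticosterone 5. Members nearer 0 moved too, such as *Cnih3* (-0.18 to -0.03), *Neto2* (0.05 to 0.21), *Gria3* (0.03 to 0.15), *Grin2d* (-0.20 to -0.01) and *Gria2* (0.09 to 0.20). With limma-voom, *Grin2a* was at 0.0044 and *Grin2b* at 0.0018. With a surrogate variable, *Gria3* was at -0.08, *Grik4* at 0.06, *Grin2d* at 0.08, *Cnih3* at 0.05, *Neto1* at -0.0047 and *Neto2* at -0.07. *Grin2c*, *Cacng8* and *Cnih2* kept their sign at -0.02 each, *Grik5* and *Grin1* at -0.01 each and *Gria2* at 0.0016. *Grik1* was at 0.16 and *Grm7* at 0.10. The surrogate variable was negative in vehicle 1 to 3 and corticosterone 5 and positive in the others, so it was not separate from the treatment. With the trend removed, *Gria2* was at -0.0028, *Gria3* at -0.04, *Grik3* at 0.03, *Grin2d* at 0.21, *Grm4* at 0.07, *Neto1* at -0.09 and *Neto2* at -0.05. With the trend removed and corticosterone 5 left out, the values were *Gria2* -0.01, *Gria3* -0.03, *Grik3* 0.04, *Grin2d* 0.30, *Grin3a* -0.06, *Grm4* 0.15, *Cacng3* 0.07, *Cacng8* 0.03, *Cnih2* 0.004, *Neto1* -0.15 and *Neto2* -0.04. With the ambiguous share as a covariate, they were *Gria2* -0.15, *Gria3* -0.27, *Gria4* -0.11, *Grik2* -0.07, *Grik4* 0.24, *Grik5* 0.21, *Grin1* 0.19, *Grin2c* 0.29, *Grin2d* 0.28, *Grm5* -0.12, *Grm2* 0.04, *Grm7* -0.03, *Grm8* -0.30, *Cacng5* 0.05, *Cacng7* 0.12, *Cacng8* 0.28, *Cnih2* 0.29, *Cnih3* 0.12, *Neto1* -0.03 and *Neto2* -0.24.

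No paired analysis was possible because replicate numbers run from 1 to 4 with vehicle and from 5 to 8 with corticosterone. The biological coefficient of variation over all genes was 0.111. The parts of this variation and of depth in the SE of single members were not separated. *Grm8*, *Cacng5* and *Grin2d* had the fewest reads per length among the members tested.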
